A study of Drosophila melanogaster with 18 samples.

Results

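The Cpr genes of Drosophila melanogaster encode cuticle proteins that carry the Rebers and Riddiford consensus, a domain that binds chitin. All genes of the deposited table whose symbol starts with Cpr followed by a digit were taken, which gave 70 of 17559 genes. The 1 gene with the symbol Cpr alone, which encodes the cytochrome P450 reductase, is not a cuticle gene and was left out. The digits and first letter of each name give the map position on the polytene chromosomes, so that Cpr49Ae, Cpr49Af and Cpr49Ag are neighbors. Of the 70 genes, 31 had a mean of at least 0.5 RPKM (reads mapped to a gene per kilobase of its exons and per 1000000 mapped reads) over all flies and were tested.

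Insect cuticle is a composite of chitin fibers and proteins that is secreted by the epidermis, and also lines the tracheae and foregut and forms the corneal lens of the eye. Different Cpr genes are used for larval, pupal and adult cuticle, and adult flies go on adding cuticle for some days after they emerge. Most Cpr proteins are known only from their chitin-binding sequence, but Cpr66D and Cpr72Ec are components of the corneal lens.

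The 18 libraries each held the poly-A RNA of 1 fly head, with 6 heads in each of 3 groups. Flies of all groups were starved, and the study gives them as females. Training paired an odor with sucrose or with sorbose, and those heads were taken 4 h later, while the odor group is labelled naive, with no sugar, and was exposed to the odor alone. Sorbose tastes sweet to flies but has no food value for them. The labels give neither strain nor age nor a collection time for the odor flies, so sugar, training and time of collection cannot be told apart in a difference from the odor group. Both trained groups were compared with the same 6 odor flies. A replicate is a single head.

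The effective library sizes recovered from the RPKM values were 45.8 to 77.2 M (1000000) reads. The heads held neuronal and photoreceptor RNA as labelled, with elav at 19.5 RPKM, nSyb at 250.1 RPKM and the opsin gene ninaE at 10177 RPKM on average. On the first component of all tested genes, odor replicates 1 and 6 had the lowest odor scores, -34.5 and -26.8 against -5.37 to 31.5 in the others. Odor replicate 4 had the highest, 31.5. Sucrose replicate 6 lay at -27.1 against -8.73 to 21.3 in the other sucrose flies. Cpr results that rest on these flies are given below with and without them.

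A few genes supplied most Cpr RNA in the adult head. The 8 most abundant members held 85.4% of the summed mean RPKM of all 70 genes, and only 13 members averaged at least 10 RPKM. In order of mean RPKM they were Cpr65Au at 235, Cpr51A at 197, Cpr49Ag at 151, Cpr67B at 124, Cpr11B at 102.5, Cpr100A at 102, the lens gene Cpr72Ec at 69.1 and Cpr49Ae at 58.1. RPKM is already divided by gene length, so these levels can be set side by side. Neighbors in this order are not separable where their flies overlap widely, as for Cpr11B and Cpr100A. Cpr73D, at 11.3 RPKM among these 13, has 9.70% of its exons opposite those of the abundant Ogdh (144 RPKM), and without strand the reads there cannot be told apart, so its level is uncertain.

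The 39 untested members averaged at most 0.491 RPKM, the value of Cpr64Ad. They had between 1 and 571 reads over all 18 flies, 6 of them no more than 10, and 30 had no read in at least 1 fly. None was without a read in all flies. The tested share, 44.3% of the family, was below the 63.0% of all genes in the table. Abundance was uneven along the chromosomes. None of the 5 members on arm 2L and none of the 3 in region 65E was tested, and only 1 of 7 was tested in region 65A, where Cpr65Au (dm6 3L:6131242-6132109, minus strand, FBgn0042119) had the highest mean of the family. All 3 members in region 62B and both in region 97E were tested, against 4 of 8 in 49A and 3 of 7 in 47E.

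Most Cpr genes varied together from fly to fly within every group, and the spread was large. The SD between flies of a group on the log2(RPKM + 0.5) scale had a median of 0.574 over the 31 members and of 0.143 over all 11062 tested genes. Of the members, 19 stood in the 10% of all genes with the largest spread, and 30 of 31 had a larger spread than the median gene. The excess was present in each group, with medians of 0.66 against 0.15 in odor flies, 0.43 against 0.12 in sorbose flies and 0.50 against 0.12 in sucrose flies. In these bulk heads, fewer cells that make a transcript and less RNA per cell cannot be told apart.

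**Figure D1:**
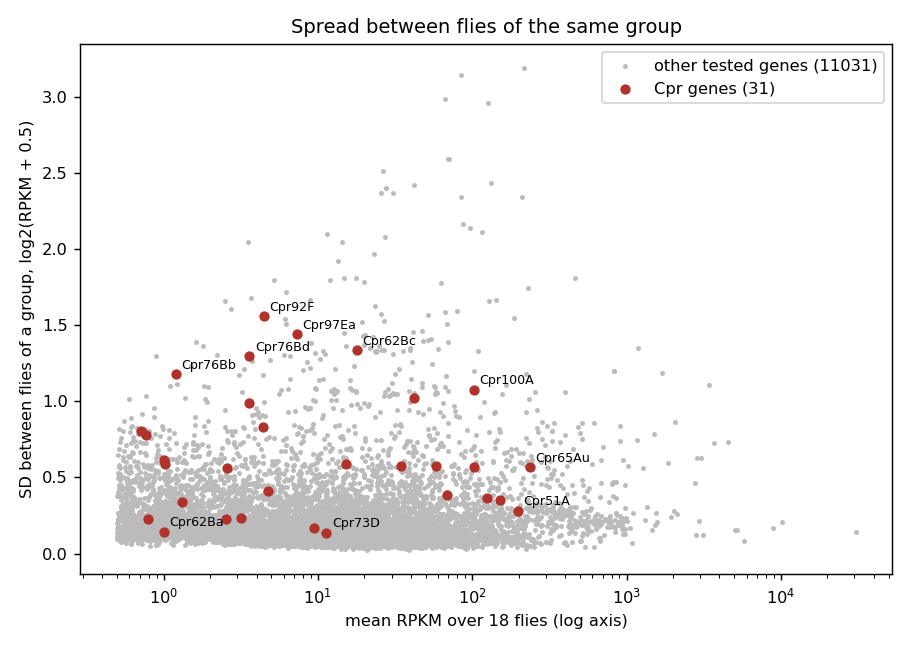
Mean RPKM over 18 flies (horizontal, log axis) against the SD between flies of a group of log2(RPKM + 0.5) (vertical) for 31 Cpr genes and the 11031 other tested genes, 1 point per gene. Cpr genes sit high in the cloud at low and high levels alike, with Cpr92F at the top of the family, and Cpr73D, whose exons overlap Ogdh in part, lies among the bulk of genes.

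To describe the shared part, group means were removed and the first principal component of the 31 members was taken. It held 84.3% of their variance within groups, the second held 5.21%, and 28 of 31 genes loaded on it with the same sign. With every gene scaled to unit variance, so that the most variable genes do not dominate, the first component still held 60.6%. The first component of all tested genes held 32.9%. Each gene was then given the percent of its own variance within groups that lay on the component of the other members (of all 31 for genes outside the family), with a minus sign where it moved the opposite way. The median, without sign, was 67.8% over the members and 15.7% over the 11031 other genes. Over 80% in the positive direction was found in 10 members, against 2.34% of the other genes, and over 50% in 19 members, against 8.94%. These values are descriptions over 18 flies, whose reads come from shared libraries and depths.

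Cpr62Bc (dm6 3L:1840281-1842084, minus strand, FBgn0035281) had the highest share at 98.7%. Its lowest, median and highest RPKM were 2.05, 5.61 and 29.2 in odor flies, 3.60, 8.90 and 54.9 in sorbose flies and 5.57, 27.2 and 57.3 in sucrose flies. The range within a group thus reached 14.2-fold in odor flies, 15.2-fold in sorbose flies and 10.3-fold in sucrose flies, and all groups overlapped. Cpr92F (97.6%) was more variable still. Cpr92F ran from 0.184 over a median of 1.37 to 10.9 RPKM in odor flies, from 0.219 over 1.87 to 15.1 in sorbose flies and from 0.608 over 5.66 to 14.7 in sucrose flies, so that the highest fly exceeded the lowest by 59.0-fold, 69.0-fold and 24.1-fold. Cpr97Ea (97.6%) and its neighbor Cpr97Eb (94.8%) followed the same flies. For Cpr97Ea, lowest, median and highest RPKM were 1.04, 2.76 and 14.3 in odor flies, 0.780, 3.37 and 22.3 in sorbose flies and 1.81, 8.58 and 26.3 in sucrose flies. The abundant Cpr100A (dm6 3R:30867521-30869184, plus strand, FBgn0039805) had 93.3% on the component. In odor flies its RPKM were 30.0, 74.0 and 191 (lowest, median and highest), against 24.9, 72.8 and 266 in sorbose flies and 47.2, 109 and 206 in sucrose flies. The others over 80% were Cpr76Bd (91.9%), Cpr49Ae (90.5%), Cpr50Cb (83.9%), Cpr62Bb (81.7%) and Cpr76Bb (81.0%).

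The same flies stood at the ends for most members, and these flies were also at the ends of their groups on the first component of all tested genes, so the order is not particular to the family. Odor replicate 4, sorbose replicate 2 and sucrose replicate 3 had the highest scores of their groups there (31.5, 11.2 and 21.3), and odor replicate 1, sorbose replicate 4 and sucrose replicate 6 the lowest (-34.5, -9.70 and -27.1). Odor replicate 4 was highest of its group for 16 of 31 members, against 17.8% of all tested genes. Sorbose replicate 2 was highest for 18 and sucrose replicate 3 for 16, against 27.4% and 26.4% of all genes. At the other end, odor replicate 1 was lowest for 21 members, sorbose replicate 4 for 16 and sucrose replicate 6 for 21, where 20.1%, 17.3% and 22.3% of all genes had their lowest value. The summed RPKM of the 70 genes ran from 812 to 1514 with a median of 1154 in odor flies, from 935 to 1540 with a median of 1097 in sorbose flies, and from 915 to 1760 with a median of 1393 in sucrose flies. Sucrose replicate 3, with the highest sum, and sorbose replicate 4, with the lowest sum of the sorbose flies, had the smallest libraries, of 45.8 and 46.8 M reads. Odor replicates 1 and 6, with the lowest sums of the odor flies, had the smallest and the largest odor libraries, of 58.4 and 77.2 M reads. The part of depth in this order was not tested.

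**Figure D2:**
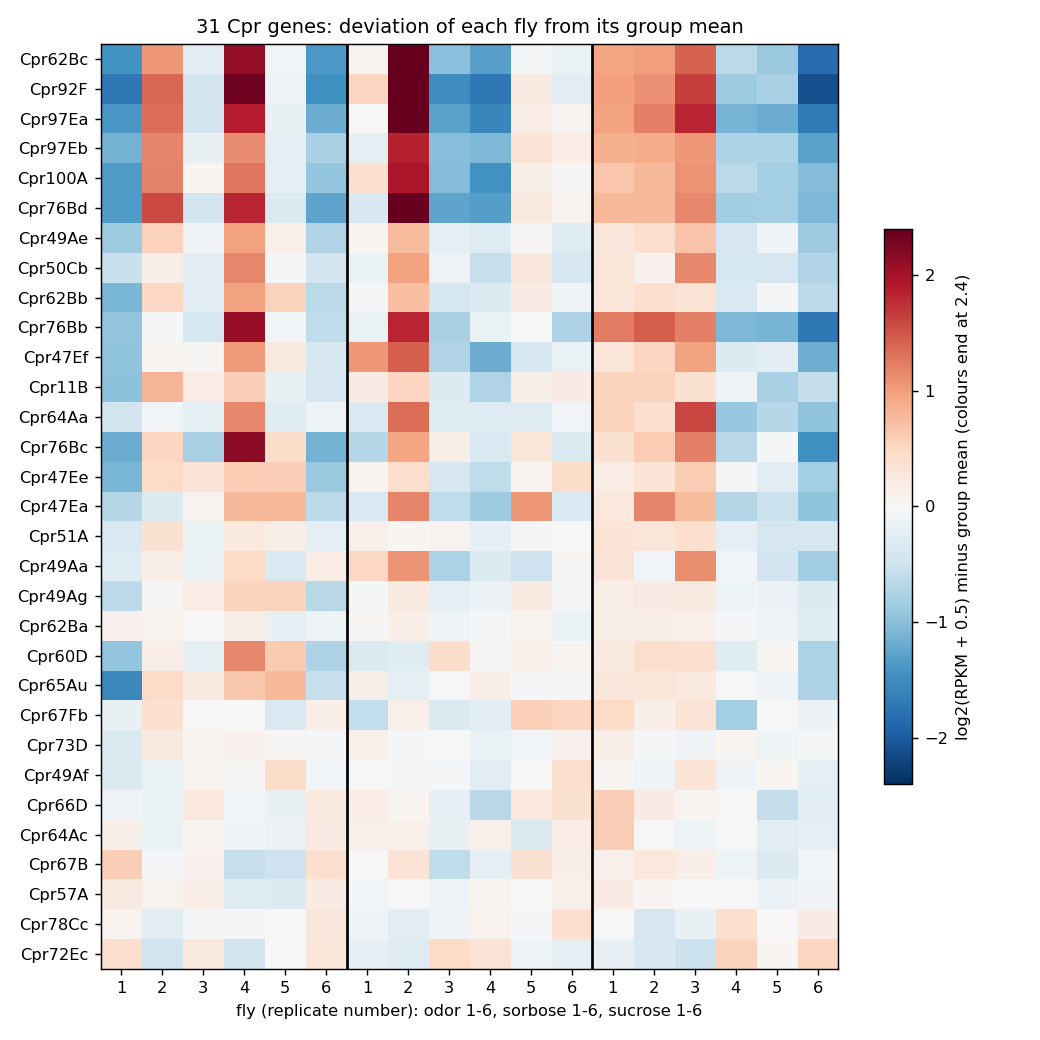
Deviation of each of 18 flies (columns, replicates 1 to 6 of odor, sorbose and sucrose) from its group mean in log2(RPKM + 0.5) (color) for the 31 tested Cpr genes (rows), ordered from 98.7% to -79.9% of variance on the component of the other members. Odor replicate 4, sorbose replicate 2 and sucrose replicates 1 to 3 are red in most upper rows, odor replicates 1 and 6, sorbose replicates 3 and 4 and sucrose replicates 4 to 6 are blue, and the pattern fades toward the lower rows.

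A further 11 members had 50% or less of their variance on this axis, in either direction. Cpr67B (0.135%), Cpr64Ac (0.672%) and Cpr57A (-4.33%) had almost none of their variance on it. Cpr57A shares all of its exons with Obp57d, so its value is that of both genes. Some of the 11 had few reads, such as Cpr78Cc with 12 to 37 per fly. The part of counting error in their shares was not tested. The most abundant member, Cpr65Au, had 31.3%. The medians of Cpr65Au were 208 RPKM in odor flies (55.9 to 281), 252 in sorbose flies (218 to 284) and 280.2 in sucrose flies (153 to 311). Odor replicate 1 and sucrose replicate 6 were the lowest of their groups, and the groups overlapped. Cpr51A (dm6 2R:14512559-14515211, minus strand, FBgn0033942), the next in abundance, had 64.9% on the component, with a spread below the family median (SD 0.283 on the log2 scale) but above that of the median gene. Its lowest, median and highest RPKM were 148, 191 and 246 in odor flies, 161, 189 and 200.4 in sorbose flies and 157, 215 and 269 in sucrose flies, with full overlap.

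The lens genes split. Cpr72Ec (dm6 3L:16365894-16367340, minus strand, FBgn0036619) was the 1 member with over 50% in the opposite direction, at -79.9%. Cpr72Ec ran from 45.7 over a median of 69.2 to 83.8 RPKM in odor flies, from 54.5 over 61.1 to 95.3 in sorbose flies and from 48.4 over 66.4 to 101 in sucrose flies, and the flies with the most RNA of the other members had little of it. Cpr66D (dm6 3L:8640439-8643584, plus strand, FBgn0052029) had 13.8%. In odor flies its RPKM were 0.944, 1.05 and 1.44 (lowest, median and highest), against 0.561, 1.32 and 1.66 in sorbose flies and 0.867, 1.58 and 2.58 in sucrose flies. The other lens protein genes, Crys and retinin, lay on the component with 83.7% and 88.9% in the positive direction. The 6 photoreceptor genes showed no common direction, with shares from -86.7% for the opsin gene ninaE to 54.9% for ninaC and a median of -0.951%.

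Cuticle genes without a Cpr symbol shared the pattern in part. Of 21 tested genes of chitin synthesis and assembly, 12 had over 80% of their variance within groups on the Cpr component, and their median was 87.8%. They included the chitin synthase gene kkv (94.7%) and knk (93.4%), whose product organizes chitin at the cell surface. Among 20 tested cuticle protein genes without a Cpr symbol, 7 were over 80%, including Acp1 (93.2%), an adult cuticle protein gene. Ccp84Aa, Ccp84Ab, Ccp84Ad and Ccp84Ag were among them too (91.8%, 89.1%, 93.1% and 92.1%). This list was set apart by symbol alone, so it can hold genes whose proteins carry the same consensus. In cuticle tanning, the cross-linking and coloring of cuticle, 5 of 17 genes were over 80%, and none of 18 hormone and epidermal regulators was. The genes given here with single values were chosen after these were seen.

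Muscle genes moved with the component as well. Of 5 tested muscle genes 3 had over 80%, namely Tm2 for tropomyosin (91.5%), Mhc for the myosin heavy chain (89.3%) and up for troponin T (84.1%), and Act88F, the flight muscle actin gene, had 0.0101%. Their summed RPKM ran from 490 to 1155 in odor flies, from 412 to 1203 in sorbose flies and from 597 to 1192 in sucrose flies, and was highest in odor replicate 4, sorbose replicate 2 and sucrose replicate 3. No gene of the list was at 0 in all flies. Glial genes had 3 of 5 over 50% and none over 80%. All 5 neuronal genes lay between -8.22% and 4.60%, and their sum ran only from 516 to 610 RPKM in odor flies, from 520 to 620 in sorbose flies and from 485 to 575 in sucrose flies. The part of muscle or glial RNA in the Cpr levels was not tested. Of the remaining markers, 1 of 3 tracheal genes was over 80% (verm, which is also in the chitin list), and none of 6 photoreceptor, 6 fat body, 5 hemocyte and 3 olfactory support genes was.

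**Figure D3:**
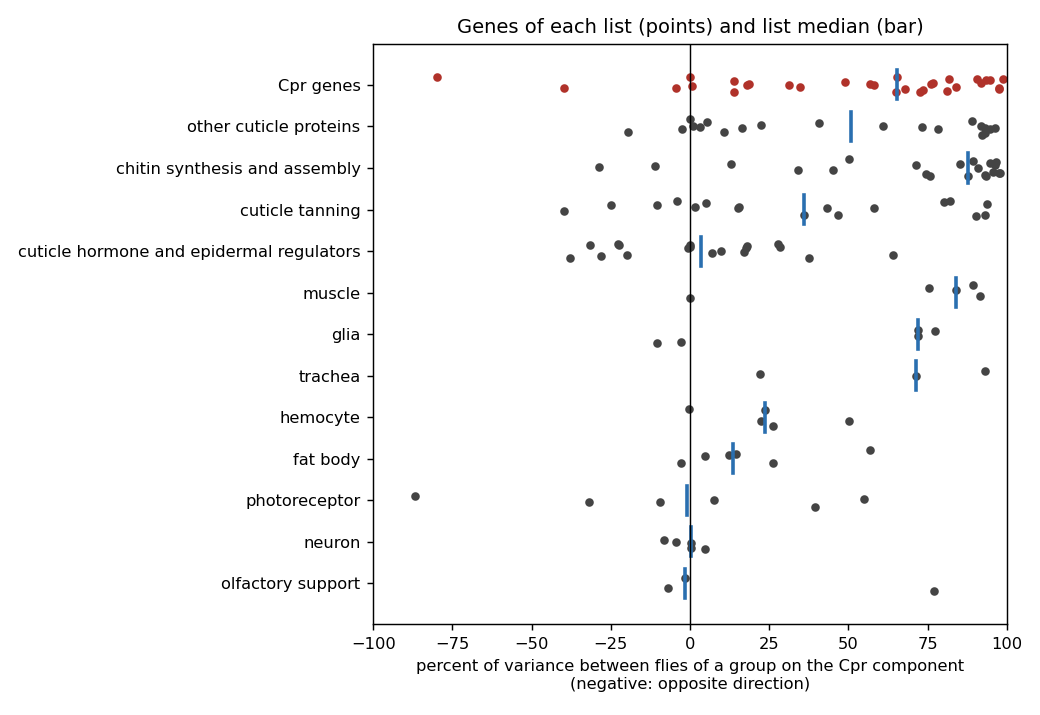
Percent of the variance between flies of a group that lay on the Cpr component (horizontal, negative for the opposite direction) for every tested gene of each list (points), with the list median (bar), and for Cpr genes on the component of the other members. Over 80% lie 12 of 21 chitin genes, 7 of 20 other cuticle protein genes, 5 of 17 tanning genes and 3 of 5 muscle genes, and the 5 neuronal genes lie near 0.

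The next question was whether Cpr levels differed 4 h after training with sucrose from those after the odor alone. In all, 10 of 31 members passed limma at an adjusted p under 0.05 (Benjamini-Hochberg over 11062 genes), 32.3% against 27.5% of all genes tested. Of these, 6 were higher in sucrose flies, 19.4% against 13.1% of all genes, and 4 were lower, 12.9% against 14.4%. The median difference in log2(RPKM + 0.5) was 0.51 over the members and -0.001 over all genes. The family share called was thus near that of all genes. Differences are on the log2(RPKM + 0.5) scale, which understates those of low genes, and are given ± SE.

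**Figure D4:**
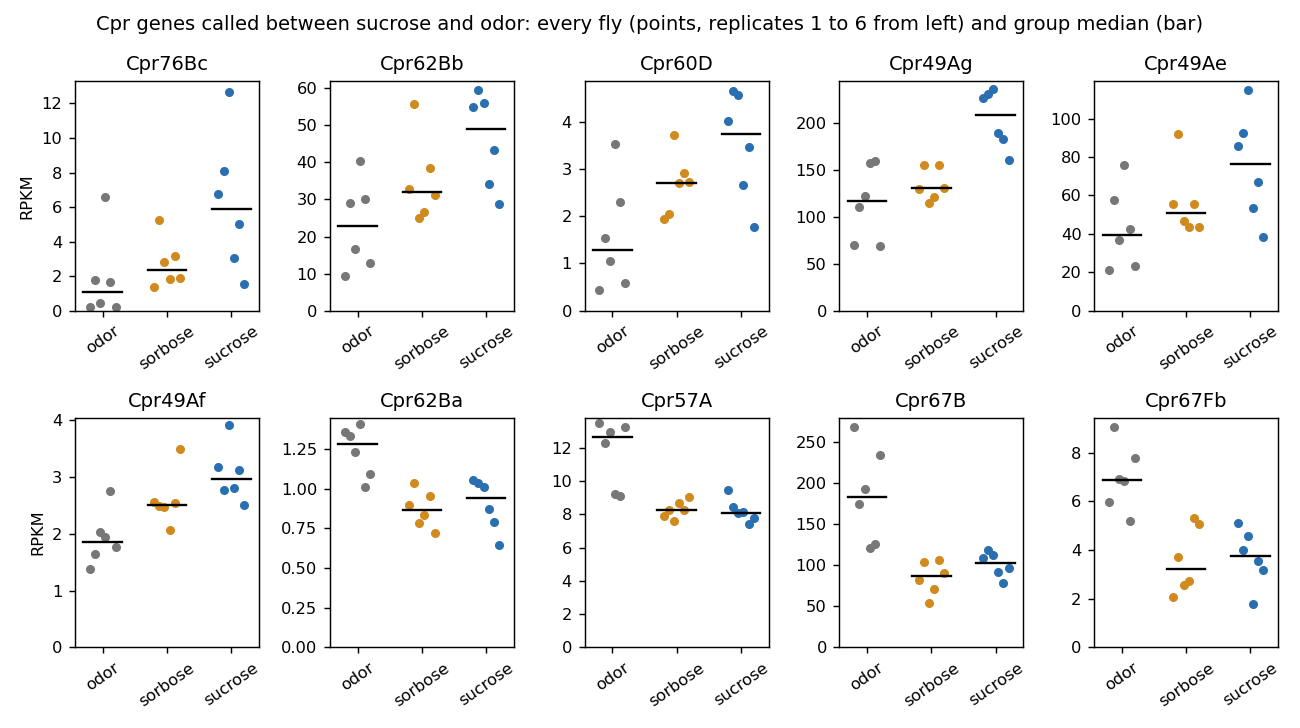
RPKM of each of 18 flies (vertical axis from 0, replicates 1 to 6 from left in each group) and group median (bar) for the 10 Cpr genes called between sucrose and odor flies, 1 panel per gene. Cpr49Ag is the 1 gene with all 6 sucrose flies above all others, and in the 4 genes with lower values the sorbose flies sit with the sucrose flies.

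In region 49A, 3 neighboring genes of the 4 tested rose with sucrose. Cpr49Ag (dm6 2R:12407793-12408523, plus strand, FBgn0033730) was the clearest. The medians of Cpr49Ag were 117 RPKM in odor flies (68.6 to 159), 130.5 in sorbose flies (114 to 155) and 208 in sucrose flies (160.4 to 236). Every sucrose fly lay above every odor fly and every sorbose fly, and sucrose minus odor was 0.90 ± 0.19 (limma adjusted p = 0.003). Among all genes, 4.45% had all sucrose flies above all odor flies. Cpr49Af (dm6 2R:12405932-12407045, plus strand, FBgn0033729) is a low gene. Its lowest, median and highest RPKM were 1.38, 1.85 and 2.76 in odor flies, 2.06, 2.51 and 3.49 in sorbose flies and 2.50, 2.96 and 3.91 in sucrose flies, all 6 sucrose flies were above the odor mean although the groups overlapped, and the difference was 0.56 ± 0.13 (limma adjusted p = 0.004). Cpr49Ae (dm6 2R:12402216-12405108, plus strand, FBgn0033728) overlapped broadly. Cpr49Ae ran from 21.2 over a median of 39.5 to 76.1 RPKM in odor flies, from 43.5 over 51.0 to 92.2 in sorbose flies and from 38.5 over 76.3 to 115 in sucrose flies, 5 of 6 sucrose flies were above the odor mean, and the difference of 0.86 ± 0.31 only just passed (limma adjusted p = 0.049). It no longer passed in 14 of the 18 fits that left out 1 fly. The fourth tested gene of the region, Cpr49Aa, had 0.28 ± 0.32 and did not pass.

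The other 3 higher members overlapped widely between the groups. For Cpr62Bb (dm6 3L:1832636-1835164, minus strand, FBgn0035280), lowest, median and highest RPKM were 9.26, 22.8 and 40.3 in odor flies, 24.9, 32.0 and 55.7 in sorbose flies and 28.7, 49.1 and 59.4 in sucrose flies. Its difference was 1.11 ± 0.31 (limma adjusted p = 0.015), with 6 of 6 sucrose flies above the odor mean. For Cpr60D (dm6 2R:24662682-24663406, minus strand, FBgn0050163), lowest, median and highest RPKM were 0.437, 1.29 and 3.52 in odor flies, 1.94, 2.71 and 3.73 in sorbose flies and 1.78, 3.74 and 4.65 in sucrose flies. It gave 1.09 ± 0.31 (limma adjusted p = 0.014), again with 6 of 6 flies above the odor mean. Cpr76Bc (dm6 3L:19520945-19527272, plus strand, FBgn0036880) had the largest difference of the 31 members and a low level. In odor flies its RPKM were 0.196, 1.06 and 6.61 (lowest, median and highest), against 1.37, 2.36 and 5.26 in sorbose flies and 1.55, 5.92 and 12.7 in sucrose flies, and the difference was 1.83 ± 0.54 (limma adjusted p = 0.019), with 5 of 6 flies above the odor mean.

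Several of these calls depended on the odor flies with the lowest Cpr levels. Odor replicates 1 and 6 were the 2 lowest odor flies for all 6 higher genes except Cpr49Af. Leaving out the lowest odor flies of a gene shrinks its rise in any case, and fewer odor flies remain. Calls lost in this way therefore do not settle whether those differences hold. Without both of them, an alternative chosen after seeing the data, 6 members passed in place of 10, and Cpr49Ae, Cpr60D, Cpr62Bb and Cpr76Bc no longer did, with differences of 0.47, 0.67, 0.68 and 1.25. Cpr49Ag and Cpr49Af still passed, at 0.57 and 0.46, and so did the 4 members that were lower. Over all genes the number called then dropped from 3041 to 1615. Without odor replicate 4, the highest odor fly for 16 members, 13 members passed, and without sucrose replicate 6 also 13, with Cpr47Ee, Cpr50Cb and Cpr62Bc added in both fits. Markers of other head cells also differed between these groups, where 13.1% of all genes were higher and 14.4% lower after sucrose and 12.2% each way after sorbose. Of 6 tested fat body genes 4 were higher after sucrose (apolpp, Lsp1beta, Yp1 and Yp2) and 1 after sorbose (apolpp), and the summed RPKM of the 7 listed ran from 2983 to 8236 in odor flies, from 2068 to 10493 in sorbose flies and from 5956 to 23406 in sucrose flies. None of the 7 was at 0 in all flies. Hemocyte genes had 2 of 5 higher and 1 lower after each sugar, glial genes 2 of 5 higher and 1 lower after sucrose and 1 lower after sorbose, and muscle genes 1 of 5 higher after each sugar (Act88F). No neuronal, photoreceptor, tracheal or olfactory support gene passed. The part of these cells in the Cpr differences was not tested.

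Of the 4 lower members, Cpr67B and Cpr67Fb separated fully between sucrose and odor flies, while Cpr57A and Cpr62Ba overlapped. Cpr67B (dm6 3L:9404797-9406174, plus strand, FBgn0035985) had the highest level of the 4. The medians of Cpr67B were 183 RPKM in odor flies (121 to 269), 86.4 in sorbose flies (53.9 to 106) and 103 in sucrose flies (78.6 to 119). All 6 sucrose flies lay below all odor flies, and the difference was -0.83 ± 0.20 (limma adjusted p = 0.006). Cpr67Fb (dm6 3L:10894173-10894693, plus strand, FBgn0036110) also separated. Its lowest, median and highest RPKM were 5.18, 6.88 and 9.06 in odor flies, 2.07, 3.21 and 5.30 in sorbose flies and 1.78, 3.77 and 5.10 in sucrose flies, and the difference was -0.86 ± 0.23 (limma adjusted p = 0.010). All sucrose flies below all odor flies was a pattern of 5.00% of all genes. Since 85.1% of the exons of Cpr67Fb overlap the antisense RNA asRNA:CR45171 and the libraries carry no strand, its reads and those of the antisense RNA cannot be told apart.

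Cpr57A (dm6 2R:20548368-20550117, minus strand, FBgn0034517) fell with a small spread. Cpr57A ran from 9.07 over a median of 12.6 to 13.5 RPKM in odor flies, from 7.61 over 8.27 to 9.03 in sorbose flies and from 7.43 over 8.10 to 9.47 in sucrose flies, and the difference was -0.47 ± 0.09 (limma adjusted p = 0.002), with 6 of 6 sucrose flies below the odor mean. Its exons are fully shared on the same strand with Obp57d, an odorant-binding protein gene, which had the same value in the table, so the 2 genes cannot be told apart here. Cpr62Ba (dm6 3L:1824129-1831783, minus strand, FBgn0035279) is a low gene with a small difference. In odor flies its RPKM were 1.01, 1.28 and 1.41 (lowest, median and highest), against 0.720, 0.865 and 1.04 in sorbose flies and 0.646, 0.942 and 1.06 in sucrose flies, the groups overlapped, 6 of 6 sucrose flies were below the odor mean, and the difference was -0.31 ± 0.09 (limma adjusted p = 0.013). It lies in region 62B beside Cpr62Bb, which was higher in the same flies. All 4 had under 50% of their variance on the shared component.

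Sorbose, compared with the same odor flies, gave 5 of 31 members, 16.1% against 24.4% of all genes. The 4 lower members were those that were lower after sucrose, 12.9% against 12.2% of all genes, and 1 was higher, 3.23% against 12.2%. For Cpr67B the difference was -1.11 ± 0.20 (limma adjusted p = 0.002) and all 6 sorbose flies lay below all odor flies, as they did for Cpr57A with -0.46 ± 0.09 (limma adjusted p = 0.004). That pattern was found in 3.53% of all genes. Cpr67Fb had -0.92 ± 0.23 (limma adjusted p = 0.009) and Cpr62Ba -0.34 ± 0.09 (limma adjusted p = 0.010), both with overlap between the groups. The higher member was Cpr49Af at 0.36 ± 0.13 (limma adjusted p = 0.042), which lost its call in 13 of 18 fits that left out 1 fly. The median difference was 0.07 over the members and 0.007 over all genes. Without odor replicate 4, Cpr60D, Cpr62Bb and Cpr76Bc passed too and the count was 8.

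The other members higher after sucrose had smaller values after sorbose, none of which passed. Sorbose minus odor was 0.30 ± 0.19 for Cpr49Ag, 0.48 ± 0.31 for Cpr49Ae, 0.71 ± 0.31 for Cpr62Bb, 0.78 ± 0.31 for Cpr60D and 0.91 ± 0.54 for Cpr76Bc (limma adjusted p = 0.279, 0.284, 0.104, 0.071 and 0.232). The comparisons with odor share their control flies, so an overlap of their calls is not independent evidence.

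**Figure D5:**
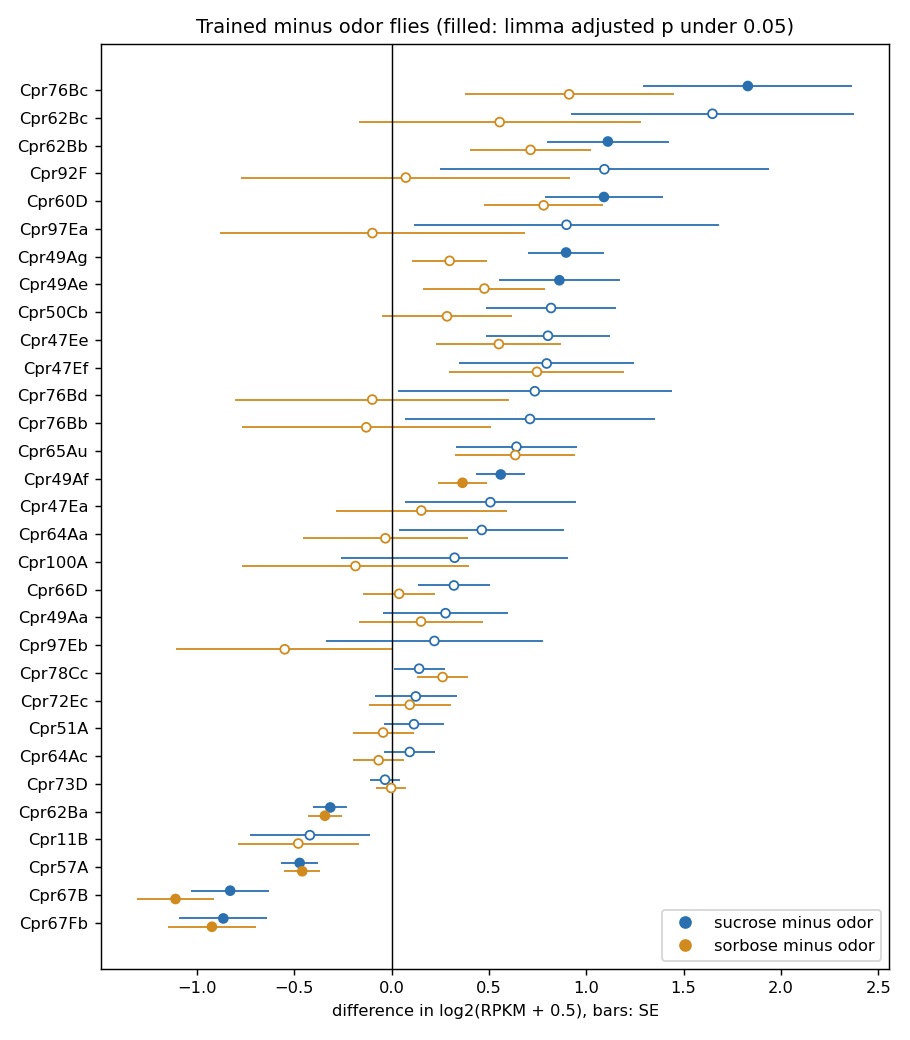
Difference in log2(RPKM + 0.5) from odor flies (horizontal, bars are SE) for sucrose (blue) and sorbose flies (orange) in the 31 tested Cpr genes, 6 flies a group, filled where limma's adjusted p was under 0.05. The filled points at the bottom, below 0, come in pairs for Cpr62Ba, Cpr57A, Cpr67B and Cpr67Fb, while above 0 only Cpr49Af is filled for both sugars.

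Sucrose flies were then set against sorbose flies directly, since the first sugar feeds flies and the other only tastes sweet. None of 31 members passed limma at an adjusted p under 0.05, against 0.00904% or 1 of all genes (CG5966), and 1 member had an unadjusted p under 0.05. It was Cpr49Ag, with 0.60 ± 0.19 (limma adjusted p = 0.245) and all 6 sucrose flies above all 6 sorbose flies, a pattern of 0.479% of all genes. It passed in 1 alternative, with flies weighted by their quality, where 308 genes passed in all. The voom model on recovered reads called no member either. The median difference was 0.28 over the members and -0.006 over all genes, and 28 of 31 members had a positive value against 47.5% of all genes. Since most members moved together from fly to fly, their signs are not separate observations.

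The remaining abundant members and the lens genes did not pass in any comparison, although Cpr65Au passed between sucrose and odor with quantile normalization. Sucrose minus odor was 0.64 ± 0.31 for Cpr65Au (limma adjusted p = 0.134) and 0.12 ± 0.16 for Cpr51A (limma adjusted p = 0.628). It was -0.42 ± 0.31 for Cpr11B (dm6 X:12553124-12554235, plus strand, FBgn0030398; limma adjusted p = 0.341), whose lowest, median and highest RPKM were 59.0, 118 and 206 in odor flies, 51.0, 94.0 and 120.1 in sorbose flies and 51.0, 96.6 and 129 in sucrose flies. For Cpr100A it was 0.32 ± 0.58 (limma adjusted p = 0.721), a value with an SE over 4 times that of Cpr49Af. Cpr72Ec gave 0.12 ± 0.21 and Cpr66D 0.32 ± 0.19 (limma adjusted p = 0.704 and 0.219). The 10 members with over 80% on the component had a median of 0.84 after sucrose and -0.01 after sorbose, relative to odor, and 2 and 0 of them passed, beside 27.5% and 24.4% of all genes. The 2 were Cpr49Ae and Cpr62Bb, which did not pass without odor replicates 1 and 6.

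Of the pathway lists, cuticle tanning had 6 of 17 tested genes higher after sucrose and none lower, beside 13.1% of all genes higher and 14.4% lower. They included yellow-d at 0.39 ± 0.10, yellow-c at 0.72 ± 0.21 and Pu, which encodes the first enzyme of pterin cofactor synthesis, at 0.62 ± 0.19 (limma adjusted p = 0.008, 0.016 and 0.021). After sorbose 2 were higher and 1 lower, beside 12.2% of all genes each way. The lists below stand beside the same shares of all genes. Chitin synthesis and assembly had 3 of 21 higher and 1 lower after sucrose, led by obst-A, for a chitin-binding matrix protein, at 2.37 ± 0.51 (limma adjusted p = 0.003), and 2 higher and 1 lower after sorbose. Cuticle proteins without a Cpr symbol had 1 of 20 higher, TwdlT at 0.83 ± 0.16, and 1 lower, Pcp at -0.67 ± 0.21 (limma adjusted p = 0.001 and 0.028). They had 1 each way after sorbose. The counts of the chitin list and of these cuticle proteins were near or below the shares of all genes. Odor replicates 1 and 6 were the 2 lowest odor flies for yellow-c, Pu, obst-A and TwdlT, but not for yellow-d. Fits of the list genes without both flies are not given. Hormone and epidermal regulators had 1 of 18 higher (E23) and 5 lower after sucrose, against 14.4% of all genes lower, and 3 lower after sorbose. The lowest was ETH, for ecdysis triggering hormone, at -1.39 ± 0.16 (limma adjusted p = 7.0e-05), and grh, for the epidermal factor Grainy head, had -0.21 ± 0.04 (limma adjusted p = 0.003).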

How the data were processed

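Single-head, non-stranded poly-A libraries of 18 flies were analysed from the deposited table of RPKM, which the authors made with one column per fly for 17559 genes. The submitters' processing notes name CASAVA 1.8.2, TopHat2 2.0.13, edgeR 3.18.1 and the dm6 genome, whereas another passage of the methods names dm3 and other tools. Gene symbols and coordinates were taken from the dm6 annotation of Ensembl for 17253 genes, and exon lengths in that annotation gave whole read numbers for 98.9% of the values (within 0.02 reads or a share of 0.0001), from which library sizes of 45.8 to 77.2 M (1000000) reads were recovered. Intervals for counting error are not given, since the spread between flies sets the error.

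RPKM were tested as log2(RPKM + 0.5) with limma 3.58.1 in R 4.3.3, with an intensity trend, on the 11062 genes that averaged 0.5 RPKM or more, with every fly in 1 fit and group as the only term. P-values were adjusted by Benjamini-Hochberg over all genes of a comparison and called under 0.05. Groups and replicate numbers came from the sample labels. The labels do not say whether flies came from separate cultures, so p-values measure the spread between these single heads. Named by rule are members called in a comparison, the 8 most abundant members, both lens members and, of each other list, at most 3 called genes. Other genes were named after their values were seen. They include members and list genes named for their share on the component, more than 3 fat body genes, and E23. The members and lists were chosen with earlier results of these data known. The lists were matched by symbol, and 9 symbols found no gene. Markers of fat body, hemocytes, tracheae and olfactory support cells were listed too. Alternatives were other pseudocounts, filters, scalings and fits, a replicate block, voom on recovered reads and leaving out flies.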

Additional observations from a re-analysis of the deposited data

Results flagged for a closer look

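Each of the 31 tested Cpr genes was checked in each group for a fly that stood apart by Dixon's criterion (95% level), which gave 8 cases in 93 checks where chance gives about 1 in 20, or 4.65. Most members moved together from fly to fly, so the checks are not independent and these counts cannot be weighed against each other. Sorbose replicate 2 stood apart upward for Cpr49Ae at 92.2 RPKM (others 43.5 to 55.6), for Cpr62Bc at 54.9 (others 3.60 to 10.2), for Cpr64Aa at 1.94 (others 0.241 to 0.411) and for Cpr76Bb at 2.91 (others 0.0632 to 0.468). Odor replicate 4 did so for Cpr64Aa at 1.67 RPKM (others 0.220 to 0.437) and for Cpr76Bb at 3.97 (others 0.0444 to 0.531). These are the flies that were highest of their groups for most members. Cpr64Ac was high in sucrose replicate 1 at 5.32 RPKM (others 2.70 to 3.39). The 1 low case was Cpr65Au in sucrose replicate 6 at 153 RPKM (others 242 to 311).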

How the results depend on the processing

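The number of members called between sucrose and odor was 9 to 13 when 1 fly was left out, 5 with a mean RPKM of at least 5 (where 5 of the 10 called genes were not tested) and 6 without odor replicates 1 and 6 together, a choice made after seeing the data. Between sorbose and odor it was 4 to 8 leaving out 1 fly (8 without odor replicate 4) and 2 with a mean RPKM of at least 5, and between sucrose and sorbose 0 in all fits but array quality weights, with 1. With quantile normalization Cpr65Au passed for sucrose minus odor (limma adjusted p = 0.046), while no higher and 4 lower members were left for sorbose minus odor. The 4 falls were kept in both comparisons in every alternative that tested them. Without odor replicates 1 and 6, all-gene calls were 1615 in place of 3041 for sucrose and 910 in place of 2702 for sorbose, and the member median was 0.25 in place of 0.51 for sucrose and -0.10 in place of 0.07 for sorbose. With no filter the sucrose median was 0.05. Between sucrose and sorbose 1 gene was called in all, but 308 with array quality weights, 8 with only both groups in the fit, 19 with quantile normalization and 1 to 49 leaving out 1 fly.

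Deviations of same-numbered flies of different groups had correlations of -0.341 to 0.435, with 7 of 18 over 0.1. Flies with different numbers were not compared in this way, so whether the numbers pair flies was not settled. A replicate block called 10, 5 and 0 members for sucrose minus odor, sorbose minus odor and sucrose minus sorbose. It kept the 10 for sucrose, but for sorbose it lost Cpr49Af, the 1 higher member, and gained Cpr78Cc.

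Signs of single genes turned only in uncalled differences. Without odor replicates 1 and 6, sucrose minus odor was -0.25 for Cpr100A and -0.036 for Cpr51A, and sorbose minus odor was -0.023 for Cpr49Ag. With array quality weights it was 0.0031 for Cpr51A and -0.0095 for Cpr72Ec, and sucrose minus sorbose was -0.15 for Cpr67Fb. With quantile normalization, sorbose minus odor was 0.053 for Cpr51A and -0.0077 for Cpr66D. Leaving out 1 fly, sorbose minus odor ran from -0.57 to 0.10 for Cpr100A, -0.12 to 0.031 for Cpr51A, -0.034 to 0.17 for Cpr66D and -0.0032 to 0.17 for Cpr72Ec. Sucrose minus sorbose ran from -0.083 to 0.21 for Cpr11B, -0.053 to 0.013 for Cpr57A, -0.0053 to 0.084 for Cpr62Ba, -0.051 to 0.15 for Cpr65Au, -0.060 to 0.22 for Cpr67Fb and -0.076 to 0.13 for Cpr72Ec. The cause was not tested.

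The shared component held 82.3% to 85.9% when 1 fly was left out. Depth limits the 39 members under 0.5 RPKM, and overlapping genes limit Cpr57A, Cpr67Fb and Cpr73D.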
